A study of Mus musculus with 12 samples.

Results

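The Toll-like receptor family was followed in purified mouse brain myelin from the third postnatal week to old age. Its members were taken by gene symbol from the table of normalized read counts: Tlr1, Tlr2, Tlr3, Tlr4, Tlr5, Tlr6, Tlr7, Tlr8, Tlr9 and Tlr13, 10 of the 21937 genes listed. Toll-like receptors are transmembrane proteins of the innate immune system that recognize microbial molecules and, in some cases, molecules released from damaged host cells. Tlr1, Tlr2, Tlr4, Tlr5 and Tlr6 are placed at the cell surface, where they meet lipopeptides, lipopolysaccharide and flagellin, whereas Tlr3, Tlr7, Tlr8, Tlr9 and Tlr13 bind nucleic acids inside endosomes. In the brain most family members are best known from microglia, the resident phagocytes, and Tlr3 is also known from astrocytes.

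The study sequenced RNA of a light membrane fraction enriched for myelin, the multilayered sheath that oligodendrocytes wrap around axons, in order to follow how its transcripts mature. The material came from brains of untreated male c57Bl6/N wild-type mice at postnatal day 18 (P18), postnatal day 75 (P75), 6 months (6mo) and 24 months (24mo), with 3 libraries for each age and 12 in all. The 6mo libraries came from separate brains. For the other ages the sources used here do not say how many animals entered a library, so that p-values measure the spread between libraries only. Each library held between 20299052 and 27214385 reads on genes, and 1 read was worth a normalized read count of 0.812 to 1.19. All 7 myelin and oligodendrocyte markers were abundant, from a mean of 4365 for Mog to 514384 for Fth1, but markers of other cells were present as well. Microglial, astrocytic and neuronal marker lists were detected in full in every library, so that the label myelin stands for an enriched and not a pure fraction. In such bulk RNA, a change in the number of cells of a type and a change in RNA per cell cannot be told apart.

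Tlr3, the receptor for viral RNA duplexes, was by far the most abundant member per transcript length. Its mean over the 12 libraries was 83.7 normalized read counts per kb of merged exons, 4.76 times the level per kb of Tlr2 and above it in 12 of 12 libraries. Tlr2 and Tlr7 followed at 17.6 and 16.6 per kb. Their order was not settled, because Tlr2 stood above Tlr7 in 6 of 12 libraries. Tlr13 came next at 9.87 per kb, above Tlr4 at 5.14 per kb in 12 of 12 libraries and below Tlr7 in 11. Tlr4 exceeded Tlr1, at 3.96 per kb, in 9 libraries. Tlr6 reached 2.41, Tlr5 0.920, Tlr9 0.844 and Tlr8 0.164 per kb, and Tlr5 was above Tlr9 in 6 of 12 libraries. At P18, P75 and 6mo Tlr7 held the second place per kb, and at 24mo Tlr2 did, with 33.6 against 25.3 for Tlr7.

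**Figure D1:**
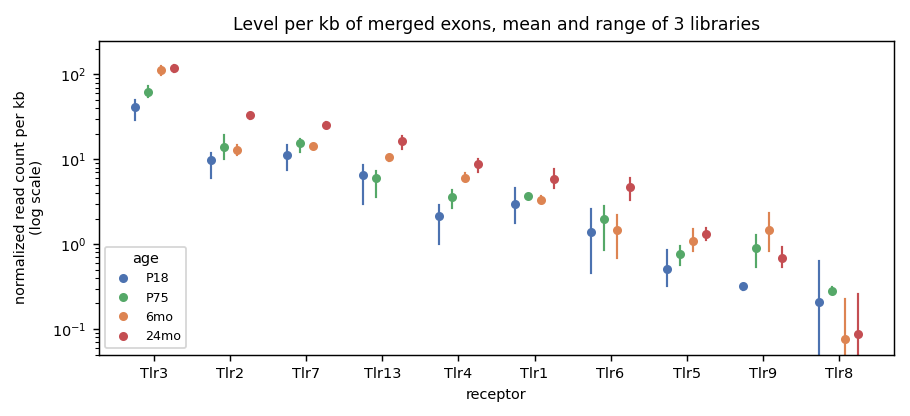
Normalized read count per kb of merged exons on a log axis for the 10 receptors, ordered by their mean over 12 libraries. Points are means of 3 libraries at each age and lines join the lowest and highest library, cut at the lower edge where a library of Tlr8 was at 0; Tlr3 lies above every other member at every age.

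Positions follow the mm9 build (NCBIM37) and the GENCODE vM1 annotation, in which all 10 members are protein-coding genes that overlap no other gene. Tlr2 lies at chr3:83640195-83645689 on the minus strand, Tlr3 at chr8:46481019-46495962 on the minus strand, Tlr4 at chr4:66488618-66591318 on the plus strand, Tlr7 at chrX:163742861-163768490 on the minus strand and Tlr13 at chrX:103338543-103355832 on the plus strand. Tlr1 and Tlr6 are neighbours on the minus strand of chromosome 5, at chr5:65316050-65324000 and chr5:65344345-65351287, and Tlr8 is the neighbour of Tlr7 at chrX:163680626-163702261. Tlr5 lies at chr1:184884919-184906175 and Tlr9 at chr9:106124929-106129207, both on the plus strand. Counts are sums over whole genes and do not separate exons.

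Promoter windows from RefSeq (build GRCm38.p6) were found for 8 of the 10 members. Tlr4 and Tlr7 had no entry. The 250 bases before each start were searched on both strands for 4 motifs, whose letters were chosen with these windows in view, after longer forms of the first pair had matched fewer of them. These were a kappa-B motif bound by NF-kappa-B (GGANTTNCC), an interferon-stimulated response element (GAAANNGAA), a PU.1 motif (GAGGAAGT) and an AP-1 motif (TGANTCA). Tlr2 and Tlr3, which changed at different ages, both held kappa-B letters. In Tlr2 a match on each strand overlapped, from 172 bases before the start, and in Tlr3 a single match began 210 bases before it. A match of that kind was present in 3.15% of all 32851 windows. The first of the 2 windows of Tlr1 held a PU.1 match (2.44% of all windows), and that of Tlr9 an AP-1 match (6.75%). The response element (7.13% of all windows) occurred as an overlapping pair in the first window of Tlr6 and singly in that of Tlr8, and the other window of Tlr6 held a kappa-B match. The windows of Tlr5 and Tlr13 held none of the 4. A match describes letters and is no evidence of binding, and with letters chosen in this way the shares are no test of enrichment. Stretches of 3 of the 4 tested receptors with a window are shown in gene direction, those with a called step between neighbouring ages, with kappa-B matches in capitals. For Tlr2 and Tlr13 they end at the GENCODE start, and for Tlr3, whose match lies past the GENCODE start, they are limited to 30 bases around it. Each was found at 1 place in NCBIM37, at chr3:83645690-83645780 (minus), chr8:46495925-46495954 (minus) and chrX:103338364-103338542 (plus).
Tlr2: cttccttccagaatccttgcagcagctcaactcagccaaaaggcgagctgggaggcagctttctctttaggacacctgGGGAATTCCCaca
Tlr3: gttgtttctgGGAGTTTCCtgcttttgagg
Tlr13: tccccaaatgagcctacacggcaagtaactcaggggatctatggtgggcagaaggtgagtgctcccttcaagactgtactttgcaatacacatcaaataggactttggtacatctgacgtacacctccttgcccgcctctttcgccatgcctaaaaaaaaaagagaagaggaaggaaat

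Across the whole age range every receptor that could be tested was more abundant at 24mo than at P18. Only 6 members passed the filter of a mean normalized read count of 10, which 14634 genes passed, and 4 members (Tlr5, Tlr6, Tlr8 and Tlr9) were too low to be tested with the others. Ages were compared with limma on log2(normalized read count + 1) over all 12 libraries, and a gene was called at an adjusted p below 0.1. From P18 to 24mo 6 of 6 tested members were called higher, whereas 34.7% of all tested genes were. The rise was 2.03 ± 0.32 (log2 change ± SE) for Tlr4, 1.81 ± 0.26 for Tlr2, 1.54 ± 0.17 for Tlr3, 1.42 ± 0.34 for Tlr13, 1.19 ± 0.21 for Tlr7 and 0.95 ± 0.35 for Tlr1. The median change of all tested genes was -0.01. Over the 4 ages the F test called 6 of 6 members, where 83.8% of all genes were called, so that most genes of this fraction passed this test. That of Tlr1 was close to the threshold (adjusted p = 0.0970), and 5 of 6 members passed with the replicate number as a block or by DESeq2. Tlr1 passed the filter through its 24mo libraries alone, the only age with a mean above 10, and its rise is therefore no support for the count. With quantile normalization, which moved the median of all genes to -0.12, the rise of Tlr1 from P18 to 24mo did not pass (0.50, adjusted p = 0.195). The steps at which the receptors rose differed, as described for each receptor in turn.

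**Figure D2:**
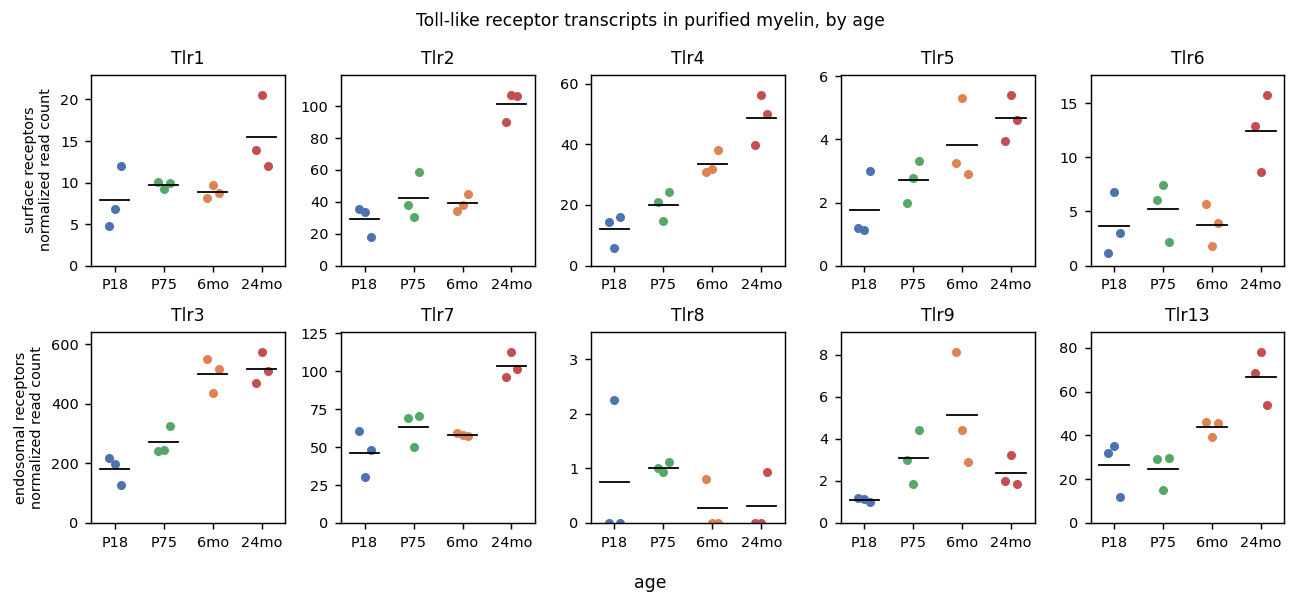
Normalized read count of each receptor in each of 12 libraries, surface receptors above and endosomal receptors below, with age on the horizontal axis. Points are libraries and bars are means of 3. All 24mo libraries of Tlr2, Tlr4, Tlr6, Tlr7 and Tlr13 lie above the younger ones, whereas Tlr3 has reached its higher level by 6mo. How many of all genes share the first pattern was not counted.

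Among the surface receptors, Tlr2 rose late. Tlr2 pairs with Tlr1 or Tlr6 to recognize bacterial lipopeptides. Its normalized read count was 35.7, 33.9 and 18.1 at P18, 38.1, 30.6 and 58.6 at P75, 34.1, 38.2 and 44.8 at 6mo, and 90.2, 107 and 106 at 24mo. The first 3 ages overlapped, and each 24mo library lay above all 9 younger libraries. From 6mo to 24mo Tlr2 rose by 1.36 ± 0.26 on the log2 scale (2.56-fold, 95% confidence interval 0.80 to 1.91, adjusted p = 0.00338). In that comparison 2 of 6 tested members, Tlr2 and Tlr7, were called higher, and 16.6% of all tested genes were. Tlr2 was also 1 of the 1.22% of genes that passed with more than a 2-fold rise. The earlier steps gave 0.53 ± 0.26 from P18 to P75 (adjusted p = 0.117) and -0.08 ± 0.26 from P75 to 6mo (adjusted p = 0.826). With every library scaled to the same total, the first step of Tlr2 passed (0.65, adjusted p = 0.0451). That scaling moved the median of all genes from 0.02 to 0.14 in this comparison.

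Tlr4, the lipopolysaccharide receptor, climbed in smaller steps. It stood at 14.3, 5.65 and 16.1 at P18, at 21.0, 14.8 and 24.3 at P75, at 30.9, 32.0 and 38.0 at 6mo, and at 39.6, 56.2 and 49.99 at 24mo. The 6mo libraries lay above all P75 libraries, and the 24mo libraries above all 6mo libraries, whereas P18 and P75 overlapped. The first step of 0.78 ± 0.32 (adjusted p = 0.0584) and the second of 0.74 ± 0.32 (adjusted p = 0.0610) were called, but the last of 0.51 ± 0.32 was not (adjusted p = 0.266). The first call rested on P18 replicate 2, the lowest library with 5 reads: without it the change was 0.36 with an adjusted p of 0.314. It was also lost without P75 replicate 1 or 3, and by edgeR (adjusted p = 0.113) and DESeq2 (adjusted p = 0.126) on the recovered reads. The second call was lost without P75 replicate 2 (adjusted p = 0.213) or 6mo replicate 3.

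The partners of Tlr2 were low. Tlr1 had 4 to 19 reads per library, and its normalized read count was 4.75, 6.78 and 12.1 at P18, 10.02, 9.27 and 9.95 at P75, 8.12, 9.76 and 8.76 at 6mo and 13.9, 20.5 and 12.03 at 24mo. The 24mo libraries lay above all 6mo libraries, but the change of 0.71 ± 0.35 did not pass (adjusted p = 0.158), although it did by edgeR on the recovered reads (adjusted p = 0.0903). Tlr6 had 1 to 17 reads per library. Its values were 1.19, 6.78 and 3.01 at P18, 6.01, 7.42 and 2.21 at P75, 5.69, 1.78 and 3.89 at 6mo and 12.9, 8.65 and 15.7 at 24mo. The 24mo libraries of Tlr6 lay above all 9 younger ones. When no filter was applied, Tlr6 passed from 6mo to 24mo with a log2 change of 1.54 (adjusted p = 0.0502) and from P18 to 24mo with 1.68 (adjusted p = 0.00936). Without a filter 12.1% and 29% of all genes with any read were called higher in those comparisons.

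Tlr5, the flagellin receptor, stayed between 1 and 6 reads per library. Its mean normalized read count was 1.78 ± 1.07 at P18, 2.70 ± 0.664 at P75, 3.83 ± 1.31 at 6mo and 4.67 ± 0.726 at 24mo (SD, n = 3). All 24mo libraries lay above all P18 libraries, and without a filter the change was 1.09 (adjusted p = 0.0150). None of its consecutive steps passed at this depth.

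Among the endosomal receptors, Tlr3 rose early and then stayed level. It stood at 219, 199 and 129 at P18, at 242, 246 and 325 at P75, at 549, 436 and 517 at 6mo and at 472, 573 and 511 at 24mo. The P75 libraries lay above all P18 libraries and the 6mo libraries above all P75 libraries, while 6mo and 24mo overlapped. Tlr3 rose by 0.59 ± 0.17 from P18 to P75 (adjusted p = 0.0110) and by 0.89 ± 0.17 from P75 to 6mo (1.85-fold, adjusted p = 0.000407). From 6mo to 24mo the change was 0.05 ± 0.17, with a 95% confidence interval from -0.31 to 0.42 (adjusted p = 0.863). In the first comparison 3 of 6 tested members (Tlr3, Tlr4 and Tlr7) were called higher against 25.9% of all tested genes, and in the second 3 of 6 (Tlr3, Tlr4 and Tlr13) against 31.2%. Both calls of Tlr3 held without any of the 12 libraries in turn, with the other pseudocounts, filters and scalings, in the fits with the replicate block or only the 2 ages, and by edgeR and DESeq2. Neither step reached the 2-fold change that a stricter setting required.

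Tlr7, a receptor for single-stranded RNA, was called higher in old age, as Tlr2 was. Its libraries read 60.6, 30.5 and 48.2 at P18, 69.2, 50.1 and 70.8 at P75, 59.3, 57.7 and 57.4 at 6mo and 96.1, 112 and 102 at 24mo. Each 24mo library lay above all 9 younger ones, which overlapped between ages. Tlr7 rose by 0.82 ± 0.21 from 6mo to 24mo (1.76-fold, 95% confidence interval 0.36 to 1.27, adjusted p = 0.0158). The step from P18 to P75 was called at 0.48 ± 0.21 (adjusted p = 0.0862), yet it was called in only 4 of the 12 fits that left out a library, with the largest adjusted p of 0.424 without P18 replicate 2. It was also missed by edgeR (adjusted p = 0.123) and DESeq2 (adjusted p = 0.123). From P75 to 6mo the change was -0.10 ± 0.21 (adjusted p = 0.700).

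Tlr13, which in mice recognizes bacterial ribosomal RNA, was higher from 6mo on. It stood at 32.1, 35.0 and 12.1 at P18, at 29.1, 14.8 and 29.9 at P75, at 46.3, 39.1 and 45.7 at 6mo and at 68.4, 77.9 and 53.7 at 24mo. The 6mo libraries lay above all P75 libraries and the 24mo libraries above all 6mo libraries, while P18 and P75 overlapped. Only the step from P75 to 6mo passed, at 0.86 ± 0.34 (adjusted p = 0.0410), and it was lost without P75 replicate 2 (adjusted p = 0.206) or 6mo replicate 1. The steps before and after were -0.03 ± 0.34 (adjusted p = 0.957) and 0.59 ± 0.34 (adjusted p = 0.232). From P75 to 24mo, a span that includes both later steps, the change was 1.45 (adjusted p = 0.00249), where 28.8% of all tested genes were called higher.

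Tlr9 and Tlr8 stayed near the detection limit. Tlr9, the receptor for unmethylated CpG DNA, had 3 reads at P18, 9 at P75, 18 at 6mo and 7 at 24mo, summed over 3 libraries. The corresponding levels were 1.10 (95% Poisson interval 0.227 to 3.22), 3.02 (1.38 to 5.73), 5.32 (3.15 to 8.40) and 2.32 (0.934 to 4.78), where the intervals cover counting error only. Tlr9 was thus the member with its highest mean at 6mo, but the fall of 0.81 on the log2 scale towards 24mo did not pass without a filter (adjusted p = 0.159), whereas the rise of 1.46 from P18 to 6mo did (adjusted p = 0.00362, with 28.5% of genes called higher). Tlr8, a further endosomal RNA receptor, was at 0 in 6 of 12 libraries and had 7 reads in all. A count of 0 allows up to 3 reads, or 2.44 to 3.56 normalized read counts depending on the library, so that no age course of Tlr8 could be seen at this depth. Of the other mouse receptors in the table, Tlr11 was at 0 in 10 of 12 libraries and Tlr12 had a mean of 6.71.

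**Figure D3:**
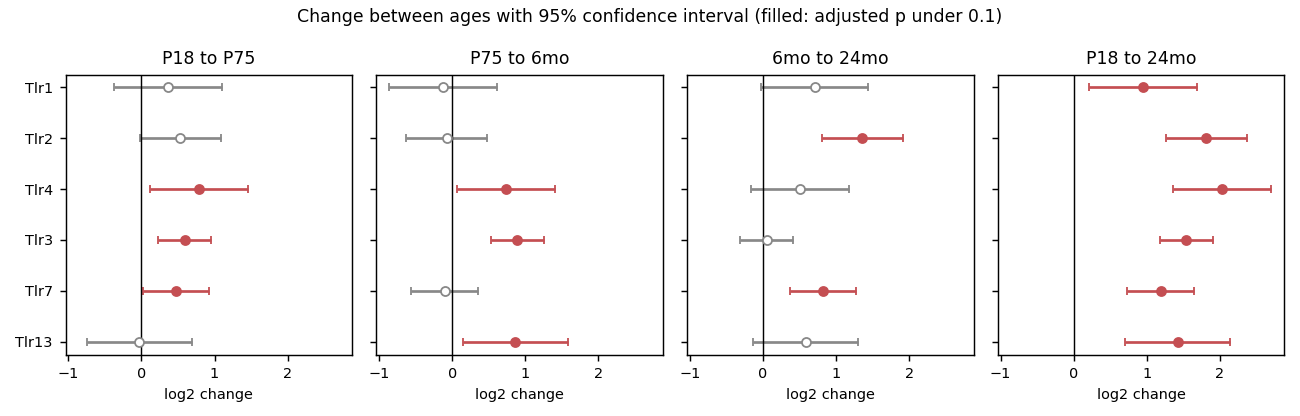
Log2 change of the 6 tested receptors between ages, later minus earlier, with the 95% confidence interval from limma. Filled points passed an adjusted p of 0.1; all 6 are filled from P18 to 24mo, and only Tlr2 and Tlr7 from 6mo to 24mo.

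Counted by libraries that did not overlap, all of the later age above all of the earlier, 1 of 6 tested members stood apart from P18 to P75, 3 from P75 to 6mo, 5 from 6mo to 24mo and 5 from P18 to 24mo. Of all tested genes 25.1%, 32.1%, 23.2% and 33.3% did so. The exceptions were Tlr3 from 6mo to 24mo and Tlr1 from P18 to 24mo. Tlr1, among the 5 from 6mo to 24mo, passed the filter through its 24mo libraries alone and is no support for that count. The 24mo libraries of Tlr2, Tlr4, Tlr7 and Tlr13, and of Tlr6, which was too low to be tested, lay above all younger ones. That pattern was not counted over all genes, so that how common it is remains unknown.

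The steps were then compared directly within each gene, a contrast chosen after the values had been seen. The step from 6mo to 24mo exceeded the step from P75 to 6mo by 1.43 ± 0.45 for Tlr2 (adjusted p = 0.0192) and by 0.92 ± 0.37 for Tlr7 (adjusted p = 0.0579). For Tlr3 it was smaller, with a difference of -0.84 ± 0.30 (adjusted p = 0.0334). Tlr1, Tlr4 and Tlr13 did not pass, and 48% of all tested genes did in either direction. The ratio of Tlr3 to Tlr2 lay between 5.55 and 8.03 at P75, between 11.4 and 16.1 at 6mo and between 4.80 and 5.35 at 24mo. For Tlr3 to Tlr7 it lay between 3.49 and 4.91 at P75, between 7.55 and 9.26 at 6mo and between 4.91 and 5.10 at 24mo. Both ratios were thus higher in every 6mo library than in any P75 or 24mo library. An exact two-sided permutation test gave p = 0.1 for each of these 4 comparisons, and 0.15 after adjustment over 6 tests. As 0.1 is the smallest value that 3 against 3 libraries allow, the test could not pass the threshold and decides nothing here. The pairs were picked with the receptor values known, and ratios of other gene pairs were not examined.

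Tlr3 made up most of the family sum. Its mean share of the summed normalized read counts of the 10 members was 58.0% at P18, 61.2% at P75, 71.7% at 6mo and 59.3% at 24mo. The sum of the 5 surface receptors was 54.5 ± 2.42, 80.1 ± 16.9, 89.1 ± 8.32 and 182 ± 19.5 over the 4 ages (SD, n = 3), and that of the 5 endosomal receptors 257 ± 62.1, 363 ± 61.1, 608 ± 64.7 and 691 ± 67.1. The surface sum at 24mo, 160 to 198, lay above the 82.1 to 98.3 of 6mo, whereas the endosomal sum overlapped between these ages.

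Microglial markers rose over the same ages: of 17 markers, 15 were called higher from P18 to 24mo, 11 higher from P18 to P75, 8 higher and 2 lower from P75 to 6mo, and 8 higher from 6mo to 24mo. The shares of all tested genes called higher in these comparisons were 34.7%, 25.9%, 31.2% and 16.6%, in that order. None of the 17 markers was at 0 in any library. The sum of their normalized read counts ran between 8063 and 9549 at P18 and between 11304 and 12633 at P75. At 6mo it lay between 13324 and 14924, and at 24mo between 19540 and 23737. Of 6 border macrophage markers, 2 were called higher and 1 lower from P18 to 24mo, where 34.7% and 34.3% of all tested genes were. Astrocyte markers moved both ways. Of 6, none of which was at 0, 3 were called higher and 2 lower from P18 to 24mo, against the same shares. From P75 to 6mo 2 were called higher, where 31.2% of all tested genes were, and 1 lower. The sum of the astrocyte markers ranged between 62163 and 79331 over all libraries. The glutamate transporter Slc1a3, an astrocyte marker, rose as Tlr3 did from P75 to 6mo, by 0.83 (adjusted p = 2.08e-05), and changed by 0.24 from P18 to P75 (adjusted p = 0.103) and by -0.16 from 6mo to 24mo (adjusted p = 0.326). Aldoc, the most abundant of the 6, went from 41165 at P75 to 29082 at 6mo (-0.50, adjusted p = 0.00209). A rise from P75 to 6mo without a later one was also seen in markers of other cells. The microglial Itgam changed by 0.70 (adjusted p = 0.00388) and then by 0.11 from 6mo to 24mo (adjusted p = 0.705). The neuronal Syt1 changed by 2.34 (adjusted p = 8.58e-09) and then by -0.30 (adjusted p = 0.118). From P75 to 6mo the microglial Aif1 (-1.03) and the neuronal Snap25 (-0.68) were called lower. All these single markers were picked after their values were seen. The part of microglia, macrophages, astrocytes and neurons in the receptor changes was not tested. The receptors were also set against the microglial sum. Per 1000 counts of microglial markers, Tlr2 ranged from 2.29 to 3.36 at 6mo and from 4.48 to 4.92 at 24mo, without overlap. At P75, however, Tlr2 ranged from 2.71 to 4.64, which overlapped with 24mo. Tlr7 ranged from 3.97 to 4.31 at 6mo and from 4.29 to 5.17 at 24mo, with overlap. Its mean on this scale was 5.21 at P18, 5.32 at P75 and 4.79 at 24mo. Tlr3 ranged from 20.7 to 25.7 at P75, from 30.4 to 38.8 at 6mo and from 21.5 to 26.3 at 24mo, so that on this scale the 6mo libraries stood above both neighbouring ages. Tlr4 and Tlr13 overlapped between 6mo and 24mo on this scale.

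**Figure D4:**
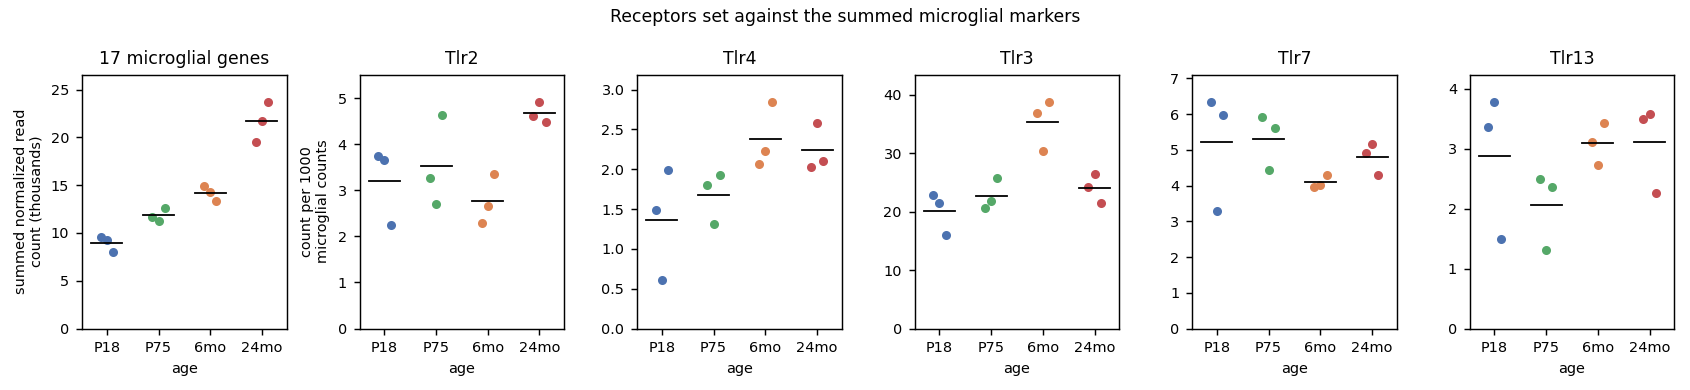
Left, summed normalized read count of 17 microglial markers in each library, in units of 1000; right, each receptor per 1000 of these counts, by age. Points are libraries and bars means of 3; relative to the markers Tlr2 has its highest mean at 24mo and Tlr3 at 6mo.

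For the 3 receptors with a mean of at least 50, the genes with the highest correlation over the 12 libraries were looked up. For Tlr2 they were Ly86 (Pearson r = 0.967), which encodes the partner of the receptor homologue Cd180, the microglial adaptor Tyrobp (r = 0.962) and Ghrh (r = 0.953), the gene of growth hormone releasing hormone. Tyrobp stands in the microglial list, and its mean went from 677 at 6mo to 1598 at 24mo. For Tlr7 they were the adhesion molecule Icam1 (r = 0.966), the lipopolysaccharide co-receptor Cd14 (r = 0.95) and the protease inhibitor Timp1 (r = 0.936). For Tlr3 they were Soat1 (r = 0.992), which esterifies cholesterol, Shisa2 (r = 0.989) and the endoplasmic reticulum peptidase Ermp1 (r = 0.989), and the mean of Soat1 was 327 at 6mo and 355 at 24mo. Libraries of the same age share their level, so that these coefficients describe the 4 age means more than 12 independent points.

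Genes listed under co-receptors and ligand delivery, among them the receptor homologue Cd180 and its partner Ly86, were higher at 24mo than at P18. All 6 genes of this list were called higher in that comparison, where 34.7% of all tested genes were, with a median log2 change of 1.41. From 6mo to 24mo 3 of the 6 were called higher (Cd14, Ly86 and Ly96), where 16.6% of all tested genes were. The scavenger receptor Cd36 (0.18, adjusted p = 0.665), Lbp (0.32, adjusted p = 0.168) and Cd180 (-0.20, adjusted p = 0.655) did not pass. Ly96, the partner of Tlr4 in lipopolysaccharide binding, went from 14.9 ± 3.82 at P18 to 38.2 ± 5.36 at P75 (1.32, adjusted p = 0.000409) and to 58.3 ± 6.68 at 24mo. Cd14, which hands lipopolysaccharide to that pair, stood at 70.2 ± 14.5 at 6mo and at 119 ± 17.7 at 24mo (0.77, adjusted p = 0.0196). The lipopolysaccharide binding protein Lbp rose by 1.59 from P18 to 24mo (adjusted p = 3.46e-07). Cd180 rose by 1.54 from P75 to 6mo (adjusted p = 0.000286) and its partner Ly86 by 0.86 from 6mo to 24mo (adjusted p = 0.00340).

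The trafficking and processing group of the endosomal receptors was higher at 24mo in full. From P18 to 24mo 7 of 7 genes were called higher, where 34.7% of all tested genes were, with a median change of 1.28. Unc93b1, the chaperone that carries endosomal receptors out of the endoplasmic reticulum, went from 182 ± 25.2 at P18 to 247 ± 16.4 at 6mo and 344 ± 20.5 at 24mo, and its last step passed (0.48, adjusted p = 0.0148). The lysosomal protease Ctss, which cleaves receptor ectodomains, rose by 2.09 from P18 to 24mo (adjusted p = 6.16e-10), with 0.95 of it between 6mo and 24mo. Ctsb rose by 1.60 (adjusted p = 1.69e-09) and the chaperone Hsp90b1 by 1.52 (adjusted p = 1.83e-07). These proteases and chaperones also serve many other proteins.

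Adaptors, which connect the receptors to kinases, moved both ways. Of 5 tested adaptors, 3 were called lower and 1 higher from P18 to 24mo, where 34.3% and 34.7% of all tested genes were, and DESeq2 called 2 lower and 1 higher. Myd88, the adaptor of all members but Tlr3, stood at 139 ± 5.09 at P18, 134 ± 19.4 at P75, 102 ± 4.08 at 6mo and 112 ± 21.6 at 24mo, and was called lower over the whole range (-0.33, adjusted p = 0.0678). Ticam1, the adaptor of Tlr3, fell from 149 ± 13.6 at P18 to 93.4 ± 4.57 at P75 (-0.67, adjusted p = 0.000622) and was 89.4 ± 4.66 at 24mo. Sarm1, a regulator of axon degeneration as well as an adaptor of this family, fell by 0.82 on the log2 scale (adjusted p = 1.24e-05). Pik3ap1 was the adaptor that rose, by 0.95 (adjusted p = 0.00769).

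Kinases and ubiquitin ligases were called lower in 9 and higher in 2 of 20 genes from P18 to 24mo (8 and 1 with DESeq2), against the same shares of 34.3% and 34.7% of all tested genes. The ligase Traf3 had the largest fall, from 2527 ± 228 at P18 to 1009 ± 68.3 at P75 and 843 ± 73.6 at 24mo (-1.58, adjusted p = 9.25e-10). Peli1 changed by -0.88 (adjusted p = 1.81e-07) and Tab1 by -0.64 (adjusted p = 6.31e-05). Ikbke rose by 0.69 (adjusted p = 0.0407) and Tbk1 by 0.26 (adjusted p = 0.00720). Both encode kinases that act on interferon regulatory factors. Of 8 transcription factors, 0 were called higher from P18 to 24mo and 1, Relb, lower (-0.33, adjusted p = 0.0526). At an unadjusted p below 0.05, with edgeR and with DESeq2 the same counts of 0 higher and 1 lower were found. From 6mo to 24mo 3 factors were called higher, where 16.6% of all tested genes were. These were Irf7 by 1.52 (adjusted p = 0.0203), Irf8 by 0.50 (adjusted p = 0.0231) and Irf5 by 0.48 (adjusted p = 0.0564). Irf8 is also a known lineage factor of microglia.

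Inhibitors of the pathway moved both ways, with 3 of 9 tested genes called higher and 5 lower from P18 to 24mo, and 2 higher and 5 lower with DESeq2. The share called higher was near the 34.7% of all tested genes, of which 34.3% were called lower. Nfkbia, which holds NF-kappa-B in the cytoplasm, fell by 1.25 on the log2 scale from P75 to 6mo (adjusted p = 6.83e-06), and the cytokine signalling inhibitor Socs1 fell by 1.43 (adjusted p = 0.000190). Tollip changed by -0.92 from P18 to 24mo (adjusted p = 3.90e-08). Irak3, a kinase homologue that restrains the receptors in macrophages, rose by 0.91 (adjusted p = 0.00592).

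Genes that the pathway induces were mostly too low to test, 13 of 20 being under the filter. Il12b and Ifnb1 were listed at 0 in all 12 libraries, and Tnf had a mean of 4.14 ± 4.48 at 24mo and less than 1 before. Of the 7 tested, 6 were called higher from P18 to 24mo and 5 from 6mo to 24mo, where 34.7% and 16.6% of all tested genes were. With edgeR and DESeq2 the same 2 counts were found. The chemokine Ccl4 went from 6.46 ± 4.56 at 6mo to 34.6 ± 2.05 at 24mo (2.42, adjusted p = 0.00267), Ccl3 from 13.1 ± 2.18 to 54.9 ± 7.73 (1.99, adjusted p = 0.000551) and Cxcl10 from 23.4 ± 14.4 to 62.5 ± 17.1 (1.53, adjusted p = 0.0220). Ccl4 had means of 14.4 at P18 and 6.53 at P75, and the mean of its younger libraries was under the filter. It was therefore tested only through its 24mo libraries, and its rise is no support for either count. Ptgs2, the inducible cyclooxygenase, rose over the whole range by 1.91 (adjusted p = 2.70e-06) but is also expressed by neurons. Il1a was the tested gene that was not called from P18 to 24mo (-0.18, adjusted p = 0.652).

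Among host molecules described in the field as agonists of Tlr2 or Tlr4, 2 of 7 were called higher and 2 lower from P18 to 24mo, near the 34.7% and 34.3% of all tested genes, and DESeq2 called 1 higher. Bgn, a matrix proteoglycan, rose by 1.18 (adjusted p = 1.89e-06) and Hmgb1, a chromatin protein released on damage, changed by -0.62 (adjusted p = 2.97e-05). S100a9 went from 71.3 ± 28.02 at P75 to 12.5 ± 2.86 at 6mo (-2.37, adjusted p = 0.000439) and to 85.6 ± 59.6 at 24mo (2.46, adjusted p = 0.00293), and S100a8 moved in the same directions by -2.71 and 2.90. Both are abundant in neutrophils. The summed neutrophil markers, of which 0 could be tested, ranged from 11.0 to 16.6 at P75, from 6.81 to 8.11 at 6mo and from 9.26 to 36.8 at 24mo, and their part in these changes was not tested.

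**Figure D5:**
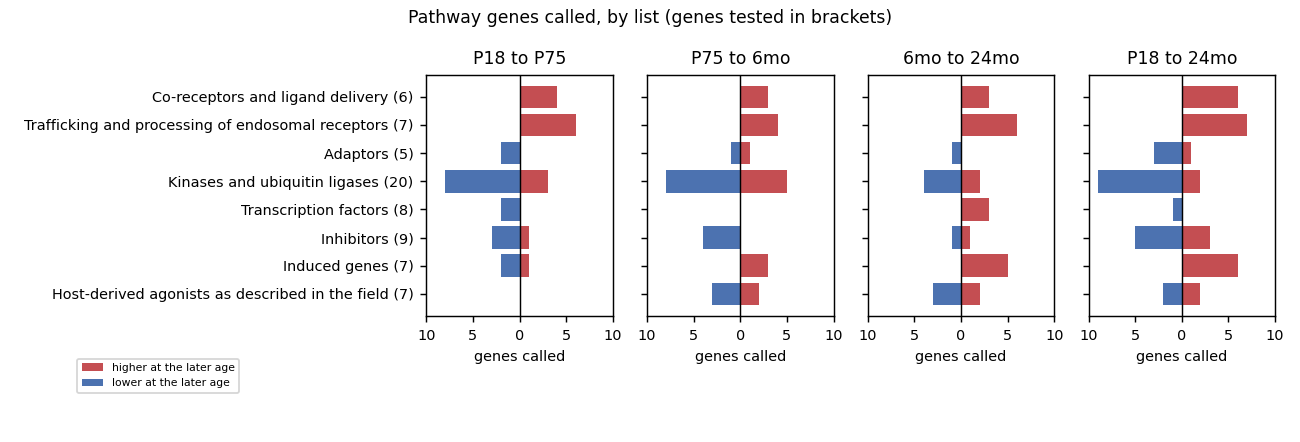
Number of pathway genes called higher (right) or lower (left) at the later age in each comparison, by list, with the number tested in brackets. From P18 to 24mo all co-receptor and trafficking genes were called higher, whereas more adaptors, kinases and inhibitors were called lower than higher.

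Over the 8 groups together, 69 of 86 pathway genes were tested. From P18 to P75 15 were called higher and 17 lower, from P75 to 6mo 18 and 16, from 6mo to 24mo 22 and 9, and from P18 to 24mo 27 and 20. Among all tested genes the shares called higher and lower from P18 to 24mo were 34.7% and 34.3%, and from 6mo to 24mo they were 16.6% and 12.7%. The shares called higher from P18 to P75 and from P75 to 6mo were 25.9% and 31.2%. In these earlier comparisons the median log2 change of the pathway genes was 0.001 and 0.007. That of all tested genes was 0.015 and 0.005. The balance of directions depended on the scaling of the libraries. With every library scaled to the same total, 21 pathway genes were called higher and 11 lower from P18 to P75, and 28 and 13 from P18 to 24mo. Quantile normalization gave 11 higher and 21 lower in the first of these comparisons and 23 and 27 in the last. Among all tested genes the scaling to the same total gave 4739 higher and 1827 lower from P18 to P75, where 3783 and 3354 had been called, and 1394 and 1614 from 6mo to 24mo, where 2435 and 1852 had been.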

How the data were processed

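The authors aligned the reads to mm9 (TopHat2 2.0.8, SAMtools 0.1.19 and HTSeq 0.5.4p1 per the submitters' processing notes), counted them on genes and scaled each library with DESeq. The signal they deposited is a normalized read count, neither length-corrected nor log-transformed. How reads on several genes and strand were handled is not given in the sources used here. Reads were recovered as whole multiples of each library's smallest step (100% whole, within 0.1 read).

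Libraries were grouped by the age in their labels. Ages were compared with limma 3.58.1 (trend, empirical Bayes, R 4.3.3) with age alone, a pseudocount of 1 and Benjamini-Hochberg adjustment over 14634 genes, and calls were made at 0.1. edgeR 4.0.16 (quasi-likelihood) and DESeq2 1.42.0 on recovered reads were alternatives. The fits were tested on simulated data. Exon lengths and positions came from GENCODE vM1, where 96.3% of symbols were found. The members, the lists and the named genes (the largest called changes, up to 3 per list and direction, with Myd88, Ticam1, Unc93b1, Cd14 and Ly96 always) were chosen with earlier results of these data known. Replicate numbers recur across ages in different mice. The deviations of same-numbered libraries correlated at 0.101 to 0.187 between P75 and 6mo, for 3 of 3 pairs, and below 0.1 in the other comparisons. This pairing comes from the data and not from a stated batch.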

Additional observations from a re-analysis of the deposited data

How the results depend on the processing

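Restricting the tests to genes with a mean of at least 100 left 1, 1, 0 and 1 of the receptors called from P18 to P75 (3 before), P75 to 6mo (3), 6mo to 24mo (2) and P18 to 24mo (6), since Tlr3 alone reaches that mean, and 19 pathway genes from 6mo to 24mo (31 before). At that mean 44 pathway genes were tested, where 69 had been. From P18 to P75 quantile normalization, a fit of only the 2 ages, edgeR, DESeq2 and a false discovery rate of 0.05 each left 1 receptor, Tlr3. The fit of only the 2 ages called 4 receptors from 6mo to 24mo. The cause was not tested. Requiring more than 2-fold as well left 0, 0 and 1 receptors in the consecutive comparisons and 3, 8, 8 and 21 pathway genes (32, 34, 31 and 47 before). Without 1 library the receptors called ranged from 1 to 4, 1 to 3, 2 to 3 and 5 to 6, where the lows of the first were without P75 replicate 1 or 3 and that of the second without P75 replicate 2. Over all genes, the 2-fold requirement left 665, 1362, 246 and 2699 calls (7137, 8865, 4287 and 10092 before). From 6mo to 24mo 2856 remained at 0.05 and 2478 to 2821 without 6mo replicate 1 or 2 or 24mo replicate 1 or 2. With the replicate block the receptors called were 3, 3, 2 and 6, and the block changed no other receptor call in these comparisons. Of 508 single-receptor values, 473 stayed on their side of the threshold, 27 lost it and 8 gained it, and no called value changed direction. Receptors with few reads are limited by depth, and groups of 3 libraries were too small for the search for single outlying libraries.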
